A study of Mesocricetus auratus with 36 samples.

Results

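The comparison described here set the ependymal strip of golden hamsters late in the run-up to hibernation against the same strip early in that run-up. It used 12 of the 36 RNA-seq libraries of the series, chosen by their titles: the 6 of the late pre-hibernation group and the 6 of the pre-hibernation group, each library from 1 animal. The counts over all genes, and many of the gene and list values, are also given without pre-hibernation 5, the 1 library of the 12 with over 5% of its counts on ribosomal RNA genes. The question was whether gene expression moved on between these stages, and, where no gene passed the test, how large a change the data would still allow.

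The tissue was the hypothalamic ependymal region of male golden hamsters (Mesocricetus auratus), cut out of frozen sections by laser capture to enrich for tanycytes. No genetic change was made in any group. All 12 animals had been moved from long days at 22 °C to 10 h of light and an ambient temperature of 8 °C, with food and water freely available and a temperature logger in the abdomen. Pre-hibernation animals were taken after 4 weeks, at 4 months of age by the labels, and late pre-hibernation animals after 8 to 12 weeks but before their first torpor, at 6 months of age. One more group, long photoperiod (14 h of light, 22 °C, labelled 8 months old, although the protocol has some of them taken before the change of day length), is used only to show the step that came before. The 2 pre-hibernation groups differ in weeks of short days, weeks of cold and age together, and these cannot be told apart. The exact number of weeks of each late animal is not used here.

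Tanycytes are glia of the ventricular lining at the base of the hypothalamus that send long processes into the nuclei below and towards the pituitary. In seasonal mammals they set the local level of active thyroid hormone: under short days the activating deiodinase Dio2 is typically low and the inactivating deiodinase Dio3 high. They also take up and convert retinol, sense nutrients and carry lipids and lactate. The captured strip holds ciliated ependymal cells beside them, and neurons, astrocytes, microglia and vessels that border the ventricle can be cut along with it.

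The 12 libraries held 12.74 to 24.92 M counts (M, 1e6). Pre-hibernation 5 was the shallowest, with 12.74 M counts, 9.28% of them from ribosomal RNA genes and 11.8% from the mitochondrial genome. The other 11 held 19.94 to 24.92 M counts, of which ribosomal RNA took 0.231% to 0.493% and mitochondrial genes 2.1% to 3.42%. Over the 10197 well expressed genes (a mean of at least 10 normalised counts per 1e6 counts, CPM, over the 12 libraries), the median distance of a library from the median of the others in its group was 0.427 on the log2 scale for pre-hibernation 5, 0.203 for late pre-hibernation 4 and 0.086 to 0.160 for the others. The median gene had an SD between animals of 0.236 log2 units in pre-hibernation (0.141 without pre-hibernation 5) and 0.173 in late pre-hibernation (0.145 without late pre-hibernation 4). Tanycyte markers were present in every library. Their summed level over 25 genes was 5530 to 7282 CPM in pre-hibernation and 4358 to 6571 CPM in late pre-hibernation, with the lowest value in late pre-hibernation 4.

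No gene passed the test between late and early pre-hibernation. Of 17926 genes tested with edgeR's quasi-likelihood test, 0 (0%) passed a Benjamini-Hochberg adjusted p below 0.05, and the smallest adjusted p was 0.266. At an unadjusted p below 0.05 there were 739 genes (4.12%), 405 higher (2.26%) and 334 lower (1.86%) in late pre-hibernation. Without pre-hibernation 5, 0 of 18101 genes (0%) passed, and 677 (3.74%) had an unadjusted p below 0.05, 439 higher (2.43%) and 238 lower (1.31%). DESeq2 called 4 genes (0.0223%, with 4.68% at an unadjusted p below 0.05) and limma voom with quality weights called 11 (0.0614%, with 11.9%). The genes with informative names among them are described below. In 54 genes (0.301%) all 6 late animals stood above all 6 early animals, and in 20 (0.112%) all stood below. With the 3 rRNA-rich libraries of the series left out (pre-hibernation 5 and 2 libraries of other groups), 0 of 17903 genes passed and 1312 (7.33%) had an unadjusted p below 0.05, 4.53% of genes being higher. Without late pre-hibernation 4, 0 of 18120 passed and 547 (3.02%) had an unadjusted p below 0.05.

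**Figure D1:**
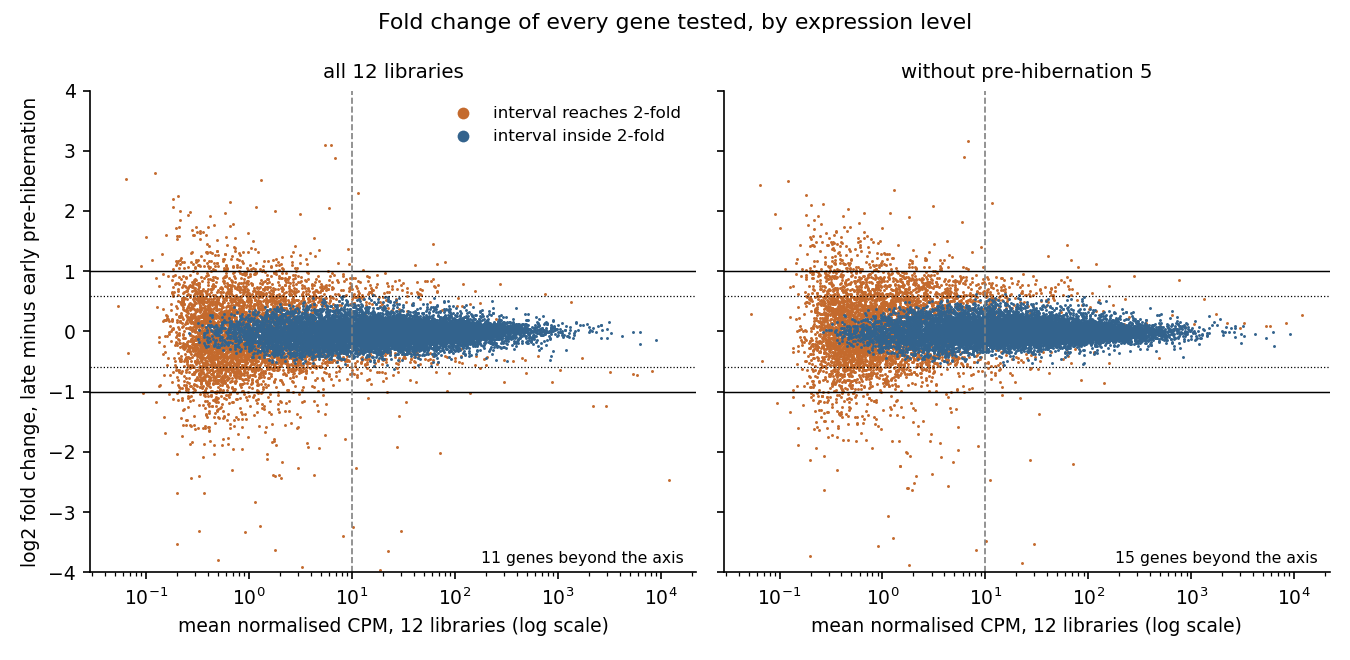
Each point is 1 gene; the x axis is its mean normalised CPM over the 12 libraries (log scale) and the y axis its log2 fold change, late minus early pre-hibernation, from the fit with all 36 libraries (left) and without pre-hibernation 5 (right). Solid lines mark 2-fold, dotted lines 1.5-fold and the dashed line 10 CPM; blue genes, whose whole 95% interval lies inside 2-fold, made up 75.3% of the genes on the left and 75.0% on the right.

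How tightly the absence of a call bounds a change was read from the 95% interval of each log2 fold change. For the 10197 well expressed genes the median distance from the estimate to either bound was 0.302 log2 units, which corresponds to 1.233-fold, and 9 in 10 of these genes were under 0.465 (1.38-fold). The whole interval lay inside 2-fold for 9906 of them (97.1%) and inside 1.5-fold for 8642 (84.8%). A formal equivalence test (a one-sided test against each margin, with Benjamini-Hochberg adjustment over all genes tested) placed 9971 (97.8%) inside 2-fold and 8719 (85.5%) inside 1.5-fold. The estimates themselves were small, with a median absolute log2 fold change of 0.08, and 22 well expressed genes had an estimate of 2-fold or more.

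Without pre-hibernation 5 the bounds were about as tight. Of 10178 well expressed genes, 9916 (97.4%) were bounded within 2-fold and 8768 (86.1%) within 1.5-fold, at a median distance of 0.301. The spread assumed for every gene in that fit still came from all 6 groups of the series, 2 rRNA-rich libraries of other groups included. Without those too, the median distance was 0.223, and 10013 of 10234 well expressed genes (97.8%) lay within 2-fold and 9331 (91.2%) within 1.5-fold. With the 11 libraries of the 2 groups fitted alone, an alternative added after seeing the data, the distance was 0.212, with 10067 of 10264 (98.1%) within 2-fold and 9444 (92%) within 1.5-fold.

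The bound depended on the level of the gene. Under 1 CPM (2899 genes) 11.5% of genes were bounded within 2-fold and from 1 to 10 CPM (4830 genes) 67.4%. The share was 96.2% from 10 to 50 CPM (5654 genes), 98.5% from 50 to 200 CPM (3632 genes) and 97.5% at 200 CPM and over (911 genes). Within 1.5-fold the shares in the same order were 0.0345%, 23.2%, 79.7%, 90.9% and 91.8%. For most genes under 1 CPM the data thus did not bound a change within 2-fold, although 111 of them had an unadjusted p below 0.05.

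**Figure D2:**
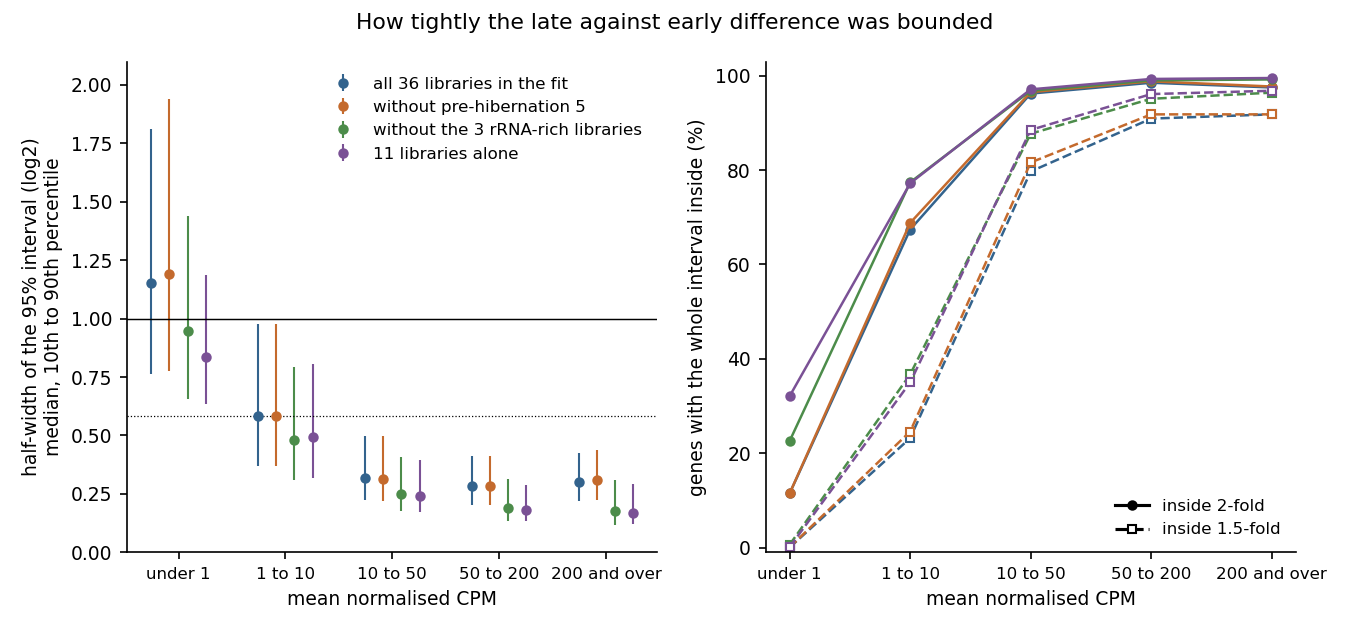
The left panel gives the distance from the estimate to either bound of the 95% interval (log2, points are medians over genes and bars the 10th to 90th percentile) in 5 bands of mean normalised CPM, for 4 sets of libraries; the right panel gives the percentage of genes whose whole interval lies inside 2-fold (solid) or 1.5-fold (dashed). With all 36 libraries in the fit the medians run from 1.151 under 1 CPM to 0.303 at 200 CPM and over.

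Among well expressed genes, 291 were not bounded within 2-fold. The interval of 127 reached 2-fold higher in late pre-hibernation and that of 168 reached 2-fold lower, with 4 genes counted in both. Their median level was 24.6 CPM, and 91 of them had an unadjusted p below 0.05. Leaving out pre-hibernation 5 brought 89 of the 291 inside 2-fold and put 64 other well expressed genes outside it. Dio3, Stra6, Lpl, Syn1, Trpc5 and Spp1, described below, are among the 291, as are Uchl1, Gad1, Sst, Ntm, Nell2, Prkar1b and Lyz. Spp1 and Lyz count as well expressed only through pre-hibernation 2, where they stood at 1225 and 285 CPM.

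The 38 genes named by a fixed list cover thyroid hormone, retinoid, tanycyte, heat shock, fuel, clock and cell type genes, and 35 of them were tested. Of the 35, 27 were bounded within 2-fold and 16 within 1.5-fold. The shares were 75.3% and 54.5% over all genes tested, and 97.1% and 84.8% over well expressed genes. Not all of the 35 were well expressed. Without pre-hibernation 5, 26 were bounded within 2-fold. Unadjusted p was below 0.05 for 5 of them, against 4.12% of all genes tested, and none passed the adjusted test.

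**Figure D3:**
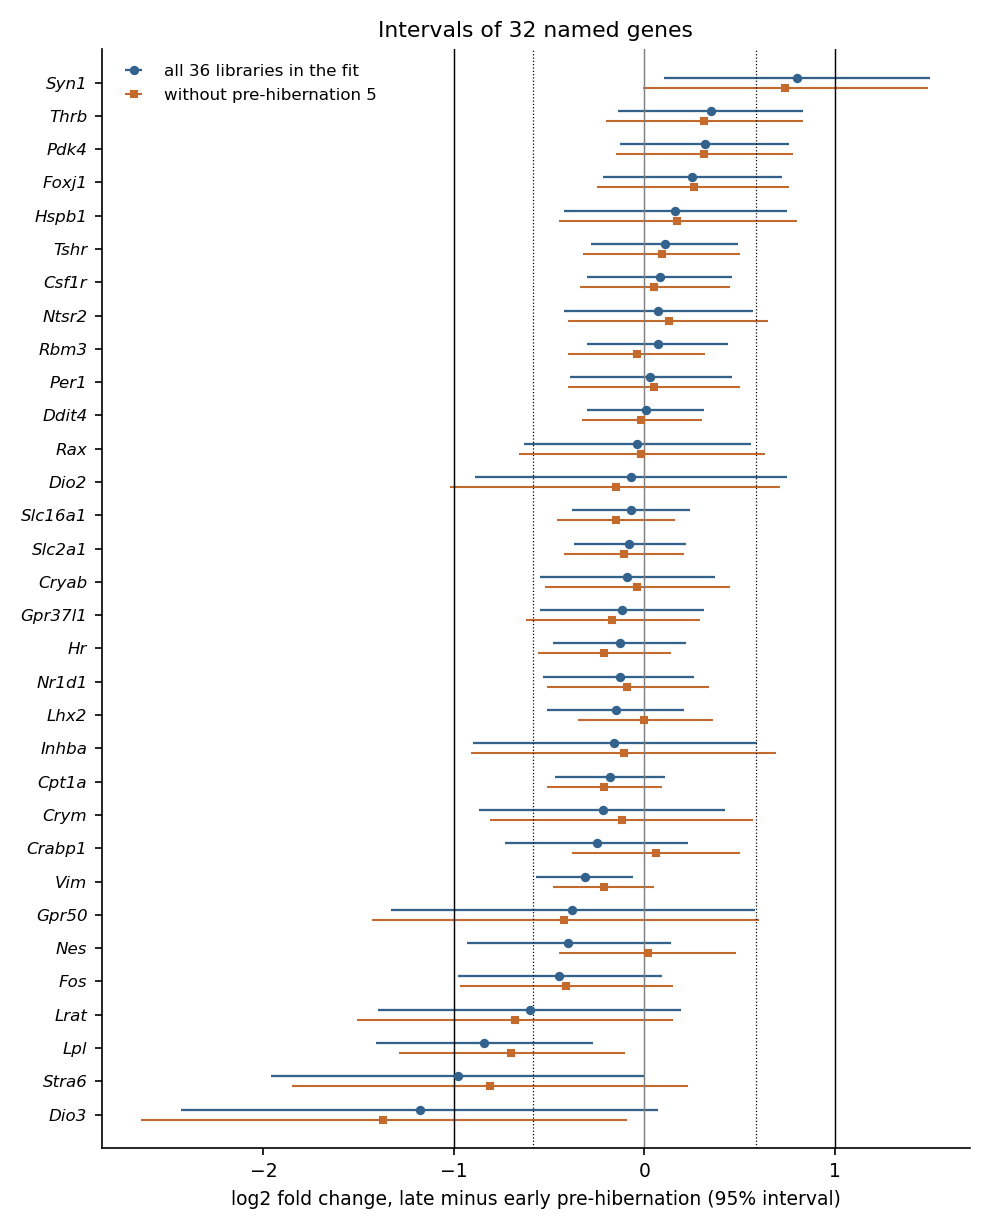
Log2 fold change, late minus early pre-hibernation, with its 95% interval for 32 of the 35 fixed genes tested, from all 36 libraries (blue) and without pre-hibernation 5 (orange); Spp1, at -6.15, is off the scale and left out, and the other 2 are not reported. Solid lines mark 2-fold and dotted lines 1.5-fold: Dio3, Stra6, Lpl and Lrat reach furthest to the left and Syn1 furthest to the right.

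Thyroid hormone genes are taken first. Dio2 stood at 3.24, 5.35 and 7.41 CPM (lowest, median and highest of 6 animals) in pre-hibernation and at 3.25, 5.15 and 7.5 CPM in late pre-hibernation. The 2 sets of values lay on top of each other. The log2 fold change was -0.07 with a 95% interval of -0.89 to 0.75, so a change of 2-fold lay outside the interval, although without pre-hibernation 5 the lower bound was -1.02. Dio3 stood at 11.5, 47.9 and 88.6 CPM in pre-hibernation and at 12.0, 19.2 and 30.3 CPM in late pre-hibernation. Pre-hibernation 2 was the highest, and the groups overlapped. The log2 fold change of Dio3 was -1.18 (-2.43 to 0.07), and -1.37 (-2.64 to -0.09) without pre-hibernation 5, so the first interval held both no change and a fall of over 2-fold.

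The thyroid hormone receptor gene Thrb stood at 64.8, 70.02 and 114 CPM against 74.8, 104 and 126 CPM, with a log2 fold change of 0.35 (-0.14 to 0.83). The early and late values of Thrb overlapped. The thyrotropin receptor Tshr (0.11, -0.28 to 0.49), the hormone-binding protein Crym (-0.22, -0.87 to 0.42) and the hormone-responsive corepressor Hr (-0.13, -0.48 to 0.22) were all bounded within 2-fold, with and without pre-hibernation 5. Of 16 tested genes of thyroid hormone metabolism, transport and receptors, 2 were higher and 0 lower at an unadjusted p below 0.05 (2.26% and 1.86% of all genes tested). Of the 16, 11 (68.8%) were bounded within 2-fold, against 75.3% of all genes tested. However, 14 of the 16 were well expressed, and of all well expressed genes 97.1% were within 2-fold. The median log2 fold change of the 16 was -0.05 against -0.01 over all genes tested. The widest interval among these was that of Ttr, a thyroxine carrier made mainly by choroid plexus. Ttr stood at 0.692, 1.51 and 11.2 CPM in pre-hibernation and at 0.940, 21.7 and 34.9 CPM in late pre-hibernation, a log2 fold change of 2.30 (0.40 to 4.19), or 2.13 (0.16 to 4.10) without pre-hibernation 5. In 4 of 6 late animals Ttr was above every early animal. Of the 6 choroid plexus markers tested, Ttr included, 3 had an estimate above 0 and 3 below, with a median of -0.14. Their summed level was 54.4 to 106 CPM in pre-hibernation and 76.7 to 120 CPM in late pre-hibernation. The part of choroid plexus tissue in the values of Ttr was not tested.

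**Figure D4:**
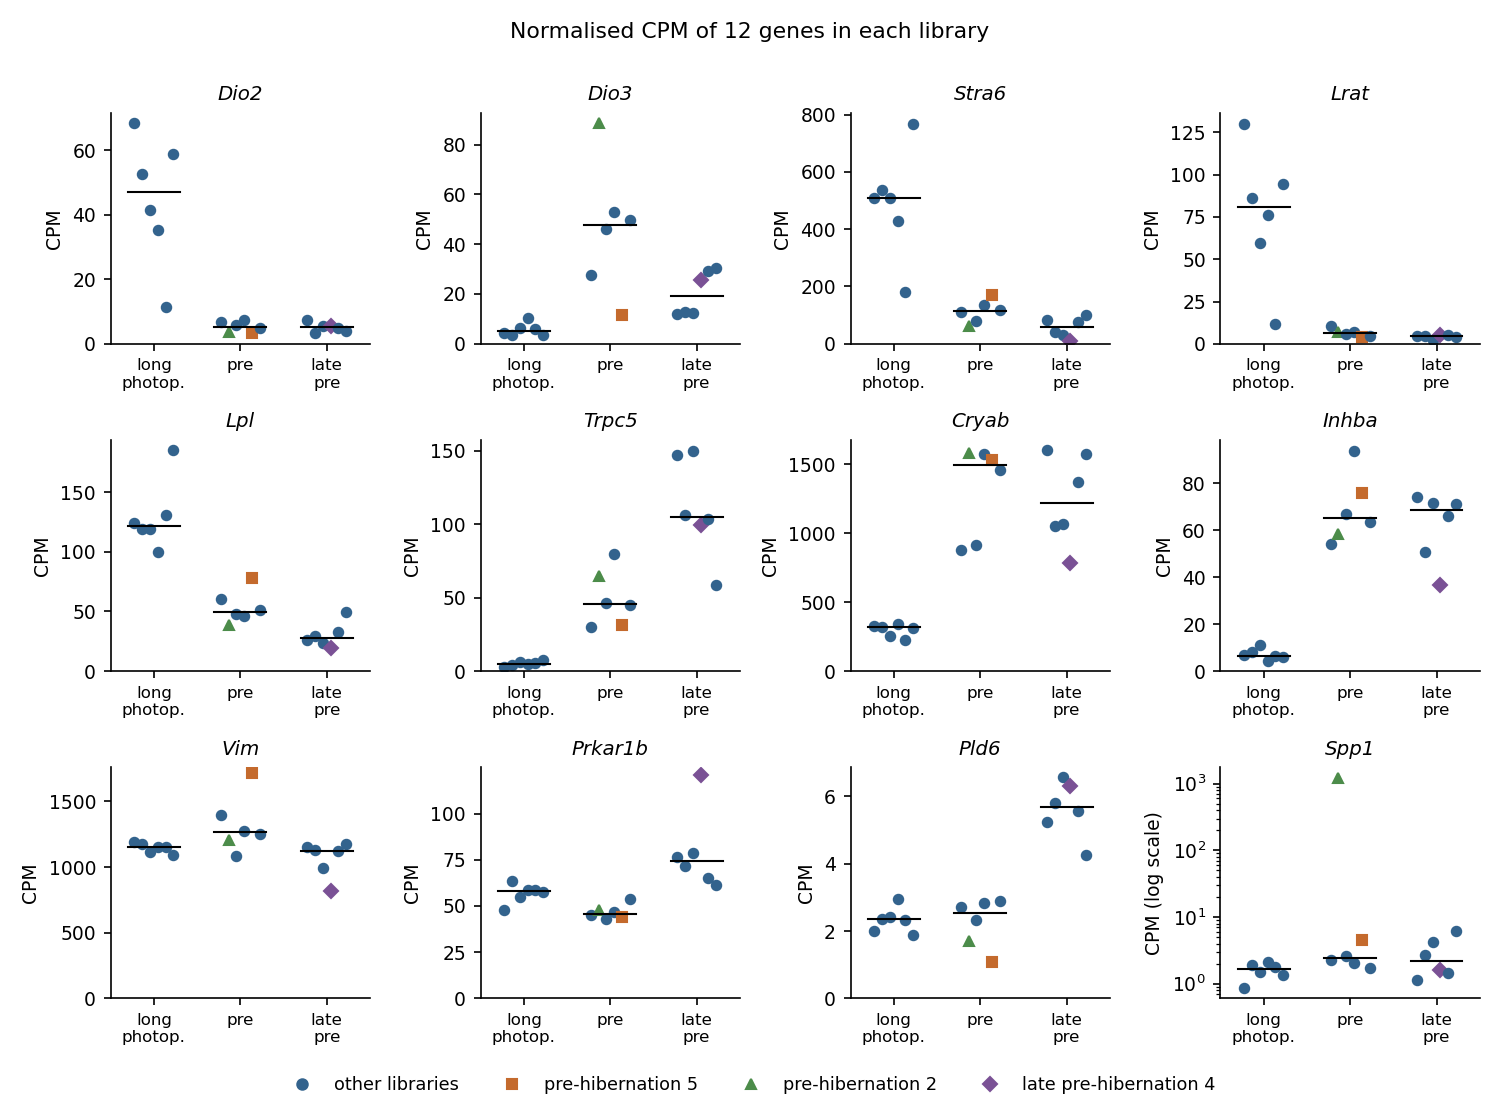
Normalised CPM of 12 genes in each library of the long photoperiod, pre-hibernation and late pre-hibernation groups (6 points each, bar at the median, Spp1 on a log axis); squares are pre-hibernation 5, triangles pre-hibernation 2 and diamonds late pre-hibernation 4. The values of Dio2, Cryab and Inhba overlap between the pre-hibernation groups, Pld6 and Prkar1b have no overlap between them, and the high value of Spp1 is 1 library.

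Among the retinoid genes, the intervals of Stra6 and Lrat both held a fall of over 2-fold as well as no change. Stra6, the membrane receptor that takes up retinol, stood at 61.3, 114 and 171 CPM in pre-hibernation and at 10.2, 58.5 and 99.7 CPM in late pre-hibernation. Of the late animals 3 lay below every early animal, late pre-hibernation 4 lowest. That gave a log2 fold change of -0.98 (-1.96 to 0.00), and -0.81 (-1.85 to 0.23) without pre-hibernation 5, which was the highest early library.

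Lrat, which stores retinol as esters, stood at 4.23, 6.28 and 10.6 CPM against 2.38, 4.58 and 5.16 CPM (-0.60, -1.40 to 0.19, or -1.51 to 0.15 without pre-hibernation 5). The groups overlapped in Lrat, with 2 late animals below every early one. Crabp1, which binds retinoic acid, had an interval of -0.73 to 0.23 around -0.25, and its estimate was 0.06 without pre-hibernation 5. Aldh1a3, which makes retinoic acid, stood at 2.25, 7.09 and 9.92 CPM against 1.75, 3.68 and 6.59 CPM (-0.81, -1.5 to -0.11, unadjusted p of 0.0245 in edgeR's quasi-likelihood test), and -0.97 (-1.65 to -0.29) without pre-hibernation 5. Over the 18 tested genes of retinol uptake, storage and retinoic acid, 1 was higher and 3 lower at an unadjusted p below 0.05 (2.26% and 1.86% of all genes tested). Of the 18, 12 (66.7%) were bounded within 2-fold, against 75.3% of all genes tested, and the median log2 fold change was -0.12. Well expressed genes of the list also numbered 12, and of all well expressed genes 97.1% were within 2-fold. Without pre-hibernation 5, 1 of the 18 was higher and 1 lower at an unadjusted p below 0.05, and the median was -0.04. The summed level of tanycyte markers was lowest in late pre-hibernation 4, the library that was also lowest for Stra6. In such bulk tissue, fewer cells of a type and less RNA per cell cannot be told apart.

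Several genes of the fixed list differed between long photoperiod and pre-hibernation, and their values in the later step are given next. Cryab, a small heat shock protein, stood at 879, 1495 and 1580 CPM in pre-hibernation and at 783, 1218 and 1608 CPM in late pre-hibernation. The ranges of Cryab coincided, and the log2 fold change was -0.09 (-0.55 to 0.37), or -0.04 (-0.52 to 0.45) without pre-hibernation 5. In the earlier step Cryab had risen by a log2 fold change of 2.15 from a mean of 297.5 CPM (adjusted p = 1.07e-06, edgeR). Hspb1, of the same family, had risen by 1.91 (adjusted p = 0.000128, edgeR) and then stood at 0.16 (-0.42 to 0.75). Inhba, the activin subunit, stood at 54.0, 65.3 and 94.0 CPM against 36.7, 68.6 and 74.1 CPM, and late pre-hibernation 4 was again the lowest. Its log2 fold change was -0.16 (-0.90 to 0.59) after a rise of 3.28 (adjusted p = 3.93e-06, edgeR).

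Ntsr2, a neurotensin receptor of astrocytes, fell by 2.03 on the log2 scale in the earlier step (adjusted p = 2.96e-06, edgeR). It then stood at 45.8, 53.6 and 61.7 CPM in pre-hibernation and at 43.1, 52.9 and 82.8 CPM in late pre-hibernation (0.07, -0.42 to 0.57). The early range of Ntsr2 lay wholly inside the late one. Gpr37l1, another astrocyte receptor, fell by 1.34 (adjusted p = 0.000200, edgeR) and then stood at -0.12 (-0.55 to 0.31). In that step Dio2 fell by 3.06 (adjusted p = 1.45e-05, edgeR) and Lrat fell by 3.54 (adjusted p = 1.07e-06, edgeR).

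Over all genes, 411 differed between pre-hibernation and long photoperiod (2.29% of 17926, edgeR's quasi-likelihood test), 289 higher (1.61%) and 122 lower (0.681%). Both steps share the pre-hibernation libraries, so values of the steps are set side by side and no overlap between them is read. In the late against early comparison 0 of the 411 passed, 44 had an unadjusted p below 0.05, 313 (76.2%) were bounded within 2-fold and 187 (45.5%) within 1.5-fold. Over all genes tested 4.12% had such a p, 75.3% were within 2-fold and 54.5% within 1.5-fold. The median level of the 411 was 20.6 CPM. Of all genes from 10 to 50 CPM, 96.2% were within 2-fold and 79.7% within 1.5-fold, so the 411 were less tightly bounded than that band. The comparison of these shares has no test, because the early libraries that chose the 411 also enter the later step. Without pre-hibernation 5 there were 373 such genes, of which 0 passed in the later step and 292 (78.3%) were bounded within 2-fold. Late pre-hibernation against long photoperiod gave 642 genes (3.58%), 403 higher (2.25%) and 239 lower (1.33%).

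Whether a gene changed by a different amount in the 2 steps was tested directly, as the late minus early difference less the early minus long photoperiod difference. This test passed for 29 genes (0.162%), of which 27 had an estimate above 0 in the earlier step, and it passed for 38 (0.210%) without pre-hibernation 5. It depended on pre-hibernation 2: without that library 4 genes passed, all of them among the 29. Those with informative names were Cryab and Inhba. Without pre-hibernation 2 the step difference of Cryab was -2.11 ± 0.42 (SE, log2 scale, adjusted p = 0.0345, edgeR) and that of Inhba -3.51 ± 0.69 (adjusted p = 0.0345, edgeR). With all libraries they were -2.24 ± 0.39 (adjusted p = 0.00555, edgeR) and -3.43 ± 0.64 (adjusted p = 0.00906, edgeR). Leaving out late pre-hibernation 4 gave 13 genes and late pre-hibernation 2 gave 18, and the other 9 libraries gave 20 to 39. With long photoperiod 1 to 3 alone as the starting point 10 genes passed, and with long photoperiod 4 to 6 alone 0 passed (at an unadjusted p below 0.05, 1071 genes).

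Among the 29, genes bounded within 2-fold in the later step numbered 18, against 75.3% of all genes tested. The later step enters the test that chose the 29, so this count and the later-step values of its members are description only. Ntsr2 was one of the 18 (step difference 2.11 ± 0.42, adjusted p = 0.0251, edgeR), and further small heat shock genes were others: Hspb6 (-1.76), Hspb7 (-2.65) and Hspb2 (-1.39). The later-step log2 fold changes of these 3 were -0.06, -0.01 and -0.04. Their means were 90.3, 42.2 and 116 CPM in pre-hibernation and 86.7, 41.8 and 113 CPM in late pre-hibernation. Hsf2, a heat shock transcription factor, was at 92.6 and 87.3 CPM after 46.01 CPM on long photoperiod. These 4 heat shock genes were singled out after their values were seen, and neither they nor Ntsr2 passed without pre-hibernation 2. Spp1 and Lyz, both high in that 1 library, were also among the 29. Dio2 missed this test (step difference 3.00, adjusted p = 0.0886, edgeR), as did Dio3 (-4.19, adjusted p = 0.0927, edgeR) and Lrat (2.94, adjusted p = 0.0727, edgeR).

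Trpc5, a cation channel subunit that senses cold, was a gene in which the estimates pointed the same way in both steps. It stood at 29.8, 45.6 and 79.7 CPM in pre-hibernation and at 58.5, 105 and 150 CPM in late pre-hibernation. In 5 of 6 late animals it was above every early animal, and late pre-hibernation 6 was within the early range. The log2 fold change was 1.16 (0.11 to 2.20), with an unadjusted p of 0.0328 in edgeR's quasi-likelihood test, after a rise of 3.27 from 5.12 CPM on long photoperiod (adjusted p = 0.000741, edgeR). Without pre-hibernation 5 the later interval was -0.03 to 2.18.

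Genes of fuel use are read here against the 97.1% of well expressed genes within 2-fold and the 84.8% within 1.5-fold. Slc2a1, the glucose transporter GLUT1, stood at 321, 359 and 446 CPM in pre-hibernation and at 312, 351 and 383 CPM in late pre-hibernation. The late range lay almost wholly inside the early one, and the log2 fold change was -0.08 (-0.37 to 0.22). The lactate transporter Slc16a1 (-0.07, -0.38 to 0.24), the mitochondrial fatty acid gatekeeper Cpt1a (-0.18, -0.47 to 0.11) and the pyruvate dehydrogenase kinase Pdk4 (0.32, -0.13 to 0.76) were each bounded within 2-fold. All 31 genes tested of glucose and lactate transport and glycolysis were within 2-fold and 25 within 1.5-fold, with 0 at an unadjusted p below 0.05. All 16 genes of glycogen metabolism and all 23 of sterol and fatty acid synthesis were also within 2-fold, 12 and 22 of them within 1.5-fold. In the glycogen list 1 gene was higher at an unadjusted p below 0.05, Ppp1r3c, a glycogen-targeting subunit of protein phosphatase 1 (0.43, 0.03 to 0.83, and -0.05 to 0.78 without pre-hibernation 5). It was named after its values were seen. In glycolysis 28 of the 31 genes were well expressed, and 80.6% were within 1.5-fold. In fatty acid uptake and oxidation 88.6% were within 2-fold and 77.1% within 1.5-fold, so these shares were near or below those of well expressed genes.

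Lpl was the fuel gene of the fixed list that was not bounded within 2-fold. Lipoprotein lipase, which frees fatty acids from lipoproteins, stood at 39.1, 49.5 and 78.0 CPM in pre-hibernation and at 19.2, 27.6 and 49.6 CPM in late pre-hibernation. In 5 of 6 late animals Lpl was below every early animal. The log2 fold change was -0.84 (-1.41 to -0.27), with an unadjusted p of 0.00561 and an adjusted p of 0.763 in edgeR's quasi-likelihood test, and it ranged from -1.04 to -0.70 when each library was left out in turn. Without pre-hibernation 5 the interval was -1.29 to -0.10. Against long photoperiod (130 CPM), Lpl was already lower in pre-hibernation (-1.27, adjusted p = 0.00830, edgeR) and was lower in late pre-hibernation (-2.11, adjusted p = 1.37e-05, edgeR). Of 35 genes tested of fatty acid uptake and oxidation, Lpl was the 1 with an unadjusted p below 0.05, and 31 were bounded within 2-fold. Those not so bounded included Cd36 (-0.40, -1.60 to 0.79), which takes up fatty acids, and Fabp3 (0.33, -0.38 to 1.04), a fatty acid carrier, both named after their values were seen.

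Clock, cold and stress genes were next. The clock repressor Nr1d1 stood at 56.2, 74.2 and 78.9 CPM in pre-hibernation and at 44.8, 62.5 and 88.8 CPM in late pre-hibernation (-0.13, -0.53 to 0.26). The groups overlapped, as they did for Per1 (0.03, -0.39 to 0.46). All 25 clock genes tested were bounded within 2-fold, 16 within 1.5-fold (22 without pre-hibernation 5), and 0 had an unadjusted p below 0.05. Of the 25, 23 were well expressed. The 16 were 64.0% of the list, and of well expressed genes 97.1% were within 2-fold and 84.8% within 1.5-fold. Rbm3, an RNA-binding protein induced by cold, stood at 139, 259 and 291 CPM against 227, 252 and 296 CPM, and the value of 139 was pre-hibernation 5. Its log2 fold change was 0.07 (-0.30 to 0.44). All 6 cold-linked RNA-binding genes tested, each well expressed, were within 1.5-fold, against 84.8% of well expressed genes.

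Ddit4, an inhibitor of mTOR signalling induced by stress, stood at 124, 134 and 158 CPM against 120, 132 and 188 CPM (0.01, -0.30 to 0.31). It had risen by 0.67 from long photoperiod (adjusted p = 0.00950, edgeR). All 27 heat shock and chaperone genes and all 19 genes of the glucocorticoid and stress response were within 2-fold, 23 and 7 of them within 1.5-fold. The 27 chaperone genes were all well expressed, and of well expressed genes 97.1% were within 2-fold and 84.8% within 1.5-fold. The 7 stress genes were 36.8% of their list, against 54.5% of all genes tested. In that list Fkbp5, a glucocorticoid-induced chaperone partner, was higher at an unadjusted p below 0.05 (0.48, 0.03 to 0.93) and Nfkbia, an inhibitor of NF-kappa-B, lower (-0.25, -0.50 to -0.01). Without pre-hibernation 5 both intervals held 0. Immediate early genes, which are switched on within minutes of a stimulus, were within 2-fold in 19 of 29 cases (65.5%, against 75.3% of all genes tested), and Fos stood at 5.11, 9.05 and 13.6 CPM against 4.60, 5.37 and 11.2 CPM (-0.45, -0.98 to 0.09). The 2 members lower at an unadjusted p below 0.05 were Egr2 (-1.55, -2.69 to -0.41) and Maff (-0.62, -1.23 to -0.01), both transcription factors under 5 CPM on average. These and the pair of stress genes were named after their values were seen.

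The genes that build the ependymal lining were bounded as follows. Of 46 genes of motile cilia, 45 (97.8%) were within 2-fold and 39 (84.8%) within 1.5-fold. Of the 46, 45 were well expressed, and the shares over all well expressed genes were 97.1% and 84.8%. The median log2 fold change of the cilia genes was -0.10, with 38 of the 46 estimates below 0. Their master regulator Foxj1 stood at 22.4, 30.9 and 37.1 CPM against 20.7, 35.8 and 53.3 CPM (0.25, -0.22 to 0.72). Of 25 tanycyte markers, 18 were within 2-fold (15 without pre-hibernation 5) and 9 within 1.5-fold (12). Both shares were below those of all genes tested, 75.3% and 54.5%. Well expressed members also numbered 18, and the shares over all well expressed genes were 97.1% and 84.8%. At an unadjusted p below 0.05, 0 markers were higher and 2 lower (2.26% and 1.86% of all genes tested). Without pre-hibernation 5, 0 were higher and 1 lower. The median of the 25 was -0.11, or -0.04 without pre-hibernation 5. The transcription factors Rax (-0.04, -0.63 to 0.56) and Lhx2 (-0.15, -0.51 to 0.21) were within 2-fold. Vim, the intermediate filament vimentin, stood at 1085, 1267 and 1715 CPM against 814, 1125 and 1175 CPM (-0.31, -0.57 to -0.06), with pre-hibernation 5 at the top of the early range and late pre-hibernation 4 at the bottom of the late range. Without pre-hibernation 5 the interval of Vim was -0.48 to 0.05.

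Nes, the filament nestin of progenitor-like cells, depended on 1 library. It stood at 111, 128 and 366 CPM in pre-hibernation, of which 366 was pre-hibernation 5, and at 102, 125 and 147 CPM in late pre-hibernation. Nes had a log2 fold change of -0.40 (-0.93 to 0.14), and 0.02 (-0.45 to 0.48) without pre-hibernation 5. The 11 mitochondrially encoded genes tested behaved alike in this respect: their median was -0.65 with pre-hibernation 5 and 0.12 without it, and 0 of them were bounded within 2-fold in either fit. In comparison, all 75 genes of cytosolic ribosomal proteins were within 2-fold and 70 (93.3%) within 1.5-fold. All 55 nuclear genes of oxidative phosphorylation were within 2-fold and 52 (94.5%) within 1.5-fold. The ribosomal and nuclear genes were all well expressed, and of well expressed genes 97.1% were within 2-fold and 84.8% within 1.5-fold.

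The narrowest intervals among well expressed genes of the lists belonged to Rpl4, a ribosomal protein (0.03, -0.13 to 0.19), Etfb, an electron carrier of fatty acid oxidation (-0.03, -0.19 to 0.13), and Rbpj, the DNA-binding partner of Notch (-0.01, -0.18 to 0.15). Ppard, a nuclear receptor for fatty acids, stood at 42.5, 47.9 and 50.8 CPM against 41.4, 42.6 and 49.02 CPM (-0.12, -0.28 to 0.05). Smad2 and Smad5, which carry activin and BMP signals, had estimates of 0.00 and intervals of -0.17 to 0.17 and -0.17 to 0.18. Of 33 genes of activin, TGF-beta and BMP signalling 26 (78.8%) were within 2-fold. The counts were 24 of 32 Wnt genes (75.0%) and 19 of 27 Notch and progenitor genes (70.4%), against 75.3% of all genes tested. At an unadjusted p below 0.05 the 3 lists held 0, 0 and 2 members, against 4.12% of all genes tested.

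Markers of neurons and other cell types that border the strip were read in the same way. Of 20 neuron markers, 18 had an estimate above 0, 10 were higher and 0 lower at an unadjusted p below 0.05 (2.26% and 1.86% of all genes tested), and the median log2 fold change was 0.57 against -0.01 over all genes. No member passed the adjusted test in edgeR. Without pre-hibernation 5, 11 were higher and the median was 0.75. Without late pre-hibernation 4, 3 had an unadjusted p below 0.05 and the median was 0.35. The list also had 16 members higher without the 3 rRNA-rich libraries. The summed level of the 20 markers ran from 735 to 1034 CPM (median 762) in pre-hibernation and from 881 to 1646 CPM (median 950) in late pre-hibernation, highest in late pre-hibernation 4, and no member was at 0 in all animals of a group. Of the 20, 7 were bounded within 2-fold, and 3 without pre-hibernation 5.

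Markers of the oligodendrocyte lineage also had medians above 0. Of 7 markers of oligodendrocyte precursors, 2 were higher and 0 lower at an unadjusted p below 0.05 (2.26% and 1.86% of all genes tested). The median log2 fold change of the 7 was 0.53, or 0.69 without pre-hibernation 5 and 0.05 without late pre-hibernation 4. The 2 higher markers were Olig1, a transcription factor of the lineage (1.06, 0.21 to 1.90), and Gpr17, a receptor of maturing precursors (1.12, 0.35 to 1.89). Both were named after their values were seen. Of 10 oligodendrocyte markers, 8 had an estimate above 0, none had an unadjusted p below 0.05, and the median was 0.37. With the mean log2 levels of the neuron and oligodendrocyte markers as covariates, edgeR called 0 genes, and 962 had an unadjusted p below 0.05. Of the 10197 well expressed genes, 9882 were then bounded within 2-fold and 7959 within 1.5-fold. The part of any of these cell types in the values of single genes was not tested.

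Syn1, a protein of synaptic vesicles, stood at 10.9, 15.8 and 24.8 CPM in pre-hibernation and at 22.0, 24.3 and 45.03 CPM in late pre-hibernation. The groups overlapped, with 2 late animals above every early one. Its log2 fold change was 0.80 (0.10 to 1.5), and the unadjusted p was 0.0276 in edgeR's quasi-likelihood test. Uchl1, a neuronal ubiquitin hydrolase, stood at 104, 115 and 155 CPM against 147, 173 and 331 CPM (0.67, 0.28 to 1.07). Gad1, which makes the transmitter GABA, stood at 22.6, 25.2 and 30.96 CPM against 33.2, 37.3 and 74.1 CPM (0.73, 0.27 to 1.18), and its groups did not overlap. Slc32a1, which loads GABA into vesicles, did not overlap either (0.94, 0.35 to 1.54).

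Hypothalamic neuropeptides had their highest sum in late pre-hibernation 4. Of 15 tested, 3 were higher and 0 lower at an unadjusted p below 0.05 (2.26% and 1.86% of all genes tested). The median of the 15 was 0.37, or 0.04 without late pre-hibernation 4. Sst, somatostatin, stood at 19.4, 27.7 and 56.6 CPM against 23.6, 52.9 and 323 CPM, of which 323 was late pre-hibernation 4. Its log2 fold change was 1.45 (0.38 to 2.53), and 0.41 without that library. Pituitary and pars tuberalis markers summed to 106 to 270 CPM in pre-hibernation and to 108 to 701 CPM in late pre-hibernation, again highest in late pre-hibernation 4. The part that neurons or pituitary tissue cut with the strip may have in these values was not tested.

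**Figure D5:**
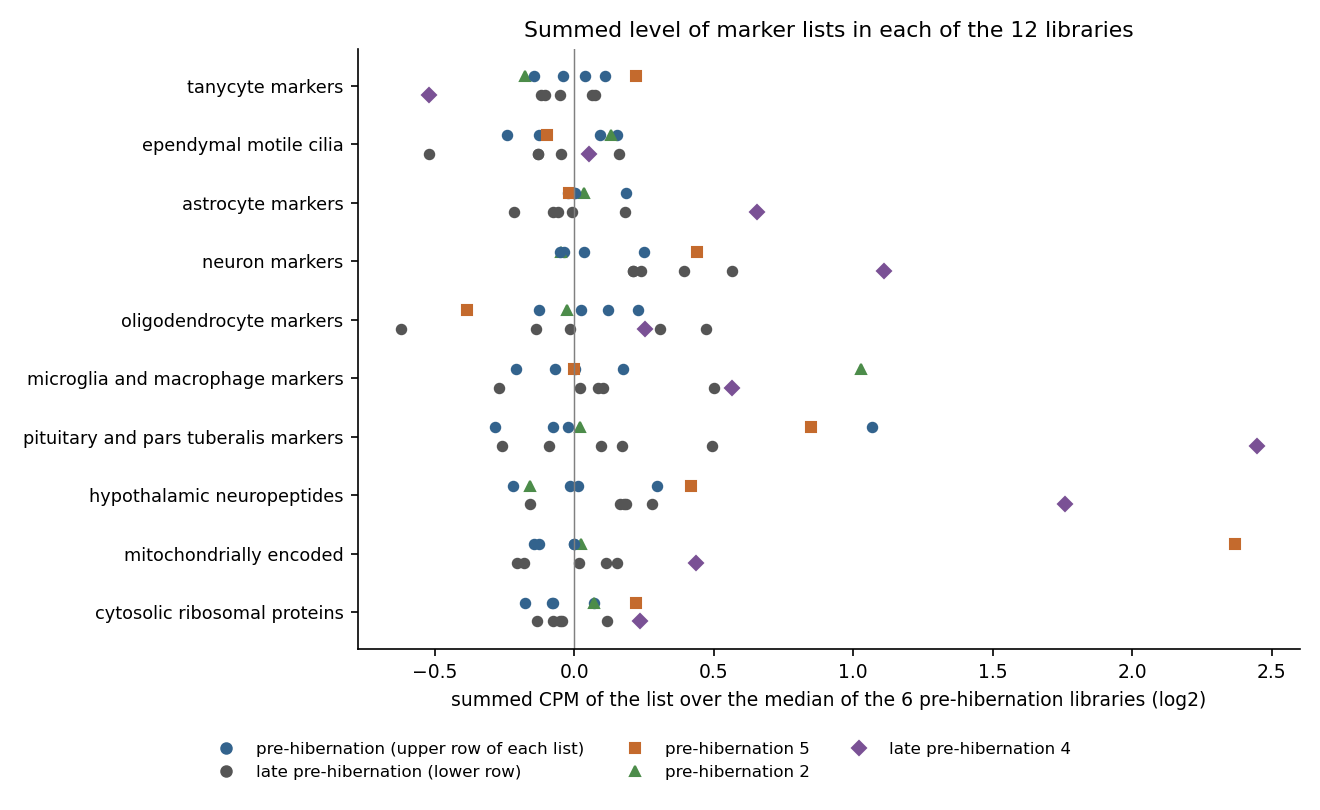
Summed normalised CPM of 10 gene lists in each of the 12 libraries, as log2 of the ratio to the median of the 6 pre-hibernation libraries; for each list the upper row is pre-hibernation and the lower row late pre-hibernation. Late pre-hibernation 4 (diamonds) is lowest for tanycyte markers and highest for the neuron, astrocyte, pituitary, neuropeptide and cytosolic ribosomal protein lists. Pre-hibernation 5 (squares) is highest for mitochondrially encoded genes, and pre-hibernation 2 (triangles) for microglia and macrophage markers.

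The 8 named genes with the smallest p among those higher in late pre-hibernation were Pld6, Ntm, Lrrtm3, Nell2, Dpp10, Prkar1b, Galnt17 and Lrrtm2. Pld6, a protein of the outer mitochondrial membrane that acts in piRNA making and mitochondrial fusion, stood at 1.08, 2.53 and 2.90 CPM in pre-hibernation and at 4.27, 5.69 and 6.59 CPM in late pre-hibernation. All late animals were above all early ones. For Pld6 the log2 fold change was 1.31 (0.76 to 1.85), 1.19 (0.65 to 1.72) without pre-hibernation 5, and between 1.19 and 1.39 when each library was left out in turn. Its adjusted p was 0.266 in edgeR, 0.0158 in DESeq2 and 0.00849 in limma voom. Long photoperiod animals averaged 2.33 CPM, and late pre-hibernation was higher than that group too (1.27, adjusted p = 0.00298, edgeR).

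Ntm, a neuronal adhesion protein, stood at 19.8, 22.5 and 24.9 CPM in pre-hibernation and at 23.2, 41.7 and 54.5 CPM in late pre-hibernation. In 5 of 6 late animals Ntm was above every early one. Ntm had a log2 fold change of 0.81 (0.47 to 1.15) with an adjusted p of 0.266 in edgeR and 0.0158 in DESeq2. Ntm was the 1 gene called by edgeR when late pre-hibernation 6, its lowest late library, was left out (0.92, adjusted p = 0.0304). Nell2, a secreted neuronal protein, and Prkar1b, a regulatory subunit of protein kinase A found in brain, did not overlap between the groups (0.91, 0.48 to 1.35, and 0.76, 0.38 to 1.14). Both were highest in late pre-hibernation 4, and without it their estimates were 0.66 and 0.60.

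limma voom with quality weights, which down-weights libraries that stand apart, called 11 genes. Hrh3, the histamine receptor H3, stood at 2.33, 4.81 and 9.14 CPM in pre-hibernation and at 7.49, 13.5 and 17.4 CPM in late pre-hibernation. In 5 of 6 late animals Hrh3 was above every early one, and its adjusted p was 0.000475 in limma voom and 0.474 in edgeR. The log2 fold change was 1.37 (0.61 to 2.13) in edgeR and 1.40 (0.59 to 2.20) without pre-hibernation 5. The others with informative names were Prr5, Sdc3, Pld6, Nol3, Sncb, Prkar1b and Rab6b, which were higher, and Tfrc and Pla2g7, which were lower. Prr5, a subunit of the mTOR complex 2, stood at 2.81, 4.55 and 5.31 CPM against 6.15, 6.79 and 8.46 CPM with no overlap (0.74, 0.27 to 1.21 in edgeR). Tfrc, the transferrin receptor that takes up iron, stood at 25.5, 32.1 and 43.2 CPM against 20.7, 21.6 and 31.8 CPM (-0.47, -0.76 to -0.18), with 5 late animals below every early one.

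The named genes with the smallest p among those lower in late pre-hibernation were Spp1, Lyz, Cd68, Ptn, Hmgn5, C5ar1, Irf7 and Tfrc. Spp1, osteopontin, a protein of activated macrophages and microglia, stood at 1.72, 2.44 and 1225 CPM in pre-hibernation and at 1.14, 2.16 and 6.16 CPM in late pre-hibernation. The value of 1225 CPM was pre-hibernation 2, and all other early libraries were at 4.59 CPM or less. The log2 fold change was -6.15 (-8.54 to -3.76) with that library and 0.15 without it. Lyz, lysozyme, was at 285 CPM in pre-hibernation 2 and had a log2 fold change of -3.31, or -0.52 without that library. Cd68, a lysosomal protein of macrophages, was at 57.4 CPM there and had a log2 fold change of -1.78, or -0.17 without it.

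C5ar1, the complement receptor, at 21.1 CPM, and Irf7, an interferon regulator, at 80.4 CPM were highest in the same library. Microglia and macrophage markers summed to 715 CPM in pre-hibernation 2, against a median of 351 CPM in pre-hibernation and 291 to 520 CPM in late pre-hibernation. The resident microglial receptor Csf1r stood at 26.3, 34.95 and 49.9 CPM against 25.7, 33.8 and 55.01 CPM (0.08, -0.30 to 0.46). Of the 17 markers, 0 were higher and 3 lower at an unadjusted p below 0.05 (2.26% and 1.86% of all genes tested), and 14 were bounded within 2-fold (75.3% of all genes tested).

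Ptn, the growth factor pleiotrophin and a tanycyte marker, did not rest on 1 library in the same way. It stood at 228, 274 and 422 CPM in pre-hibernation and at 159, 212 and 250 CPM in late pre-hibernation, with 3 late animals below every early one. The value of 422 CPM was pre-hibernation 5, and the next was 295 CPM. For Ptn the log2 fold change was -0.47 (-0.74 to -0.19), with an adjusted p of 0.509 in edgeR, and it ran from -0.53 to -0.32 when each library was left out in turn. Hmgn5, a nucleosome-binding protein, stood at 21.7, 30.7 and 46.5 CPM against 16.9, 19.8 and 24.6 CPM (-0.62, -0.99 to -0.25). Its highest early value was also pre-hibernation 5, with the next at 34.5 CPM.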

How the data were processed

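The deposited tables hold raw counts per gene, not normalised, in 1 file for each animal. Per the file headers, fragments were assigned to exons with featureCounts 2.0.1 against the RefSeq annotation of assembly BCM_Maur_2.0, summed by gene, paired and unstranded. Antisense or overlapping genes can therefore not be told apart. For the aligner, settings were not given in the sources used here. By the labels' protocols, each library is 1 animal, the tissue was laser-captured, and RNA integrity numbers lay between 7 and 9. Of 32340 genes in the tables, 31895 were found in the RefSeq gene table. No pair of libraries was identical.

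After filterByExpr and TMM scaling, a robust quasi-likelihood model was fitted to the 36 libraries and 6 groups together (edgeR 4.0.16, R 4.3.3), so that all groups share 1 estimate of the spread. Adjusted p values are Benjamini-Hochberg over all genes tested, with calls below 0.05. The 95% intervals are Wald intervals from the same fit (working weights, moderated degrees of freedom). CPM use TMM factors, and fold changes are relative to that scaling. The workflow was tested on simulated data.

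The libraries, the 35 gene lists and the named genes were chosen with earlier results of these data known. Named genes are a fixed list of 38, the 8 smallest p in each direction (mean log2 CPM not under 1, symbol not starting with LOC), genes called by another tool, the 6 narrowest and 6 widest intervals among the lists, the 6 largest absolute fold changes, and the 3 smallest p of lists with at least 3 members below an unadjusted p of 0.05. Others are named as chosen after their values were seen. Results for 2 genes of the fixed list are not reported here.

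Alternatives were RLE factors, DESeq2 1.42.0, limma 3.58.1 voom with quality weights, other filters, the replicate number as a block, marker covariates, removal of rRNA and mitochondrial genes, the 12 libraries alone, and leaving out libraries. Tables and figures used Python 3.11.15, pandas 2.3.3 and matplotlib 3.10.9. No sequence is shown.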

Additional observations from a re-analysis of the deposited data

Results flagged for a closer look

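Within each group of 6 animals, 144 sets of values (library totals, named genes and summed lists) were checked for 1 animal far from the others, and 24 held one. Chance alone gives about 1 in 20 for independent sets of normally distributed values. The 144 sets share the same libraries, so the 24 cannot be set against that rate. Pre-hibernation 5 was named by 10 of the 24 and late pre-hibernation 4 by 8.

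Pre-hibernation 5 was lowest for total counts (12.74 M), Rbm3 (139 CPM, next 250 CPM), Slc16a1 (72.9 CPM) and the summed glycogen genes (1244 CPM). It was highest for the share of ribosomal RNA (9.28%) and of mitochondrial genes (11.8%), for Nes (366 CPM, next 135 CPM), and for the summed levels of activin, TGF-beta and BMP genes (1294 CPM), Notch and progenitor genes (2054 CPM) and mitochondrially encoded genes (106000 CPM, next 20850 CPM). Pre-hibernation 2 was highest for Spp1 (1225 CPM, next 4.59 CPM) and for microglia and macrophage markers (715 CPM). Pre-hibernation 6 was highest for astrocyte markers (3747 CPM) and pre-hibernation 4 for glucocorticoid and stress genes (1145 CPM).

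Late pre-hibernation 4 was lowest for Crym (87.8 CPM), Rax (72.2 CPM), and the summed tanycyte markers (4358 CPM), thyroid hormone genes (1451 CPM) and sterol and fatty acid synthesis genes (2371 CPM). It was highest for Syn1 (45.03 CPM), pituitary markers (701 CPM, next 181 CPM) and neuropeptides (1276 CPM, next 458 CPM). Late pre-hibernation 3 was lowest for Lrat (2.38 CPM), and late pre-hibernation 5 highest for Ddit4 (187.5 CPM).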

How the results depend on the processing

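The count of genes called stayed at 0 in edgeR under RLE factors, both other filters, marker covariates, removal of rRNA and mitochondrial genes, the 12 or 11 libraries alone, and without the 3 rRNA-rich libraries. It ran from 0 to 1 when each library was left out in turn, and was 4 in DESeq2 and 11 in limma voom. With limma voom 1 gene list held a called member. Genes at an unadjusted p below 0.05 (739) numbered 1515 with no filter beyond 1 count, 1312 without the 3 rRNA-rich libraries, 2131 in limma voom, 1348 with 11 libraries alone and 339 without pre-hibernation 2 and 5 and late pre-hibernation 4 together, and 547 to 858 with each library left out. The 11 libraries alone and the set without those 3 libraries together were chosen after seeing the data.

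Well expressed genes bounded within 2-fold numbered 9818 to 9916 and within 1.5-fold 8147 to 8768 when each library was left out. At a minimum of 50 CPM they were 4466 of 4543 (98.3%) and 4138 (91.1%), fewer because fewer genes qualify. The median distance to a bound was 0.301 to 0.323 with each library left out and 0.189 in limma voom. The difference between the 2 steps passed for 4 to 39 genes with each library left out, 10 with long photoperiod 1 to 3 alone and 0 with 4 to 6 alone. The cause of these shifts was not tested. No named gene reversed while called, and 12 of 2160 values of named genes passed only under an alternative.

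The replicate numbers do not pair the animals: same-numbered libraries correlated at -0.279 to 0.055. With the replicate number as a block, 0 genes were called and 638 had an unadjusted p below 0.05. Under 1 CPM, 11.5% of genes were bounded within 2-fold. The part of depth in this was not tested.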
